A study of Mus musculus with 8 samples.

Results

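Interferon-induced genes and the interferon regulatory factors (Irf) were followed on 4 Agilent 1-colour expression arrays of mouse cells. The members were all probes, control spots excluded, whose gene name begins with Ifit, Ifitm, Ifi, Irf, Gbp, Mx or Isg and a digit, or with Oas. The rule took names only and applied no cut on measured values, but it was chosen with earlier results of these data known. It found 74 of 41174 probes and 50 of 27962 gene names. These were 12 Oas, 9 Ifi, 6 Ifitm, 4 Gbp, 3 Ifit, 2 Mx and 2 Isg genes, 8 Irf factors, and 4 genes that share only part of a name, namely Irf2bp1, Irf2bp2, Isg20l1 and Isg20l2. The first 7 families, 38 genes in all, are called the induced genes below. The arrays held 1 sample each. PM2i-iPSC and OM2i-iPSC were induced pluripotent stem cell preparations made from mouse embryonic fibroblasts. The fibroblasts had received a combination with purmorphamine (PM2i-iPSC) or with an oxysterol (OM2i-iPSC), and then 2i/LIF. Purmorphamine and some oxysterols activate Smoothened of the Hedgehog pathway, and 2i/LIF is a medium with inhibitors of MEK and GSK3 and the cytokine LIF. The third array held embryonic stem cells from blastocysts of the 129/Ola background (ES), and the fourth held mouse embryonic fibroblasts (MEF). The labels give no genetic background for the other 3 groups and do not say whether a preparation was 1 clone or a pool. The series holds 8 samples, and its 4 Affymetrix arrays were not used here.

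Interferons are cytokines that cells release on sensing viral nucleic acid. Type I interferon binds Ifnar1 and Ifnar2, the kinases Jak1 and Tyk2 phosphorylate Stat factors, and these join Irf9 on interferon-stimulated response elements in promoters. Interferon gamma acts through Ifngr1, Ifngr2, Jak1 and Jak2, and Stat dimers then bind gamma-activated sites. Among the products, Ifit proteins bind viral RNA, Oas enzymes make an activator of RNase L, Mx and Gbp proteins are antiviral or antimicrobial GTPases, and Ifitm proteins restrict virus entry at membranes. Embryonic stem cells are known to respond weakly to interferon and to express some of these genes, Ifitm genes among them, without it.

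Levels are log2 of the background-corrected spot signal relative to the 75th percentile of its array, and each gene is read on its brightest probe. Of the 50 genes, 19 have several probes. A level is compared only between arrays for 1 probe, never between probes. Signals called well above background by the scanner software numbered 32 member genes of 50 for PM2i-iPSC, 35 for OM2i-iPSC, 39 for ES and 47 for MEF, and 30 genes were so on all 4 arrays. Oas1g and Oas1h were on none. The lowest signal well above background lay at -4.59, -4.60, -5.13 and -6.85 on the PM2i-iPSC, OM2i-iPSC, ES and MEF arrays. Where the dimmer side was below that, or the brighter side was saturated, a fold is given as "at least". There were no replicates, so no difference was tested. Spots of the same probe on an array differed by an SD of 0.201. Spot scatter alone thus gives 0.285 for a difference between arrays, which leaves out variation between slides, labellings and samples. PM2i-iPSC and ES shared a slide, OM2i-iPSC was on another, and MEF was on the third, whose scan date and earlier software release differ from the rest. For comparisons with MEF or OM2i-iPSC, slide and group cannot be told apart. The 7 embryonic stem cell markers summed to 94.1, 79.1, 106 and 1.37 times the 75th percentile on the PM2i-iPSC, OM2i-iPSC, ES and MEF arrays. The 8 fibroblast markers summed to 6.47, 6.47, 6.42 and 115 in the same order of arrays, so both labels were borne out. In these bulk samples fewer cells that express a gene and less RNA per cell cannot be told apart.

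The probes below are those on which the results turn, with coordinates of build mm7 as the MEF file gives them. Each is 60 bases long. They include the factor with the widest difference from MEF (Irf8) and the gene with the widest measured difference below MEF (Ifi44). The others, except Gbp5, differ between iPSC and ES or between the preparations. Gbp5 did not reach 2-fold in those comparisons and is printed as a Gbp gene above MEF. Their place within exons was not analysed here. Between different genes of a family, no pair of member probes matched at more than 36 of 60 bases, without gaps.
Irf8 probe, brightest, chr8:119390963-119391022, plus strand: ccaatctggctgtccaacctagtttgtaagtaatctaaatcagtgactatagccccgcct
Irf8 probe, other, chr8:119391398-119391457, plus strand: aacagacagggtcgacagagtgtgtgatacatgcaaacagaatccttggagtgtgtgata
Ifit1 probe, chr19:34350610-34350669, plus strand: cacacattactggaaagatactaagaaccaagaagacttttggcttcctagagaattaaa
Ifi44 probe, chr3:151631285-151631344, minus strand: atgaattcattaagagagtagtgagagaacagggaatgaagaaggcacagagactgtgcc
Ifi35 probe, chr11:101566736-101566795, plus strand: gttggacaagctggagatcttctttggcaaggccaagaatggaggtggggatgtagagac
Ifitm3 probe, chr7:137426955-137427014, minus strand: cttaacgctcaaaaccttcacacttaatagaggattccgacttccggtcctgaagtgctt
Gbp1 probe, chr3:142511872-142511931, plus strand: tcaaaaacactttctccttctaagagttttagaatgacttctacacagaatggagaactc
Gbp5 probe, chr3:142414754-142414813, plus strand: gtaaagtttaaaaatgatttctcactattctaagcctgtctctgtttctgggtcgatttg
Oas2 probe, brightest, chr5:119964411-119964470, minus strand: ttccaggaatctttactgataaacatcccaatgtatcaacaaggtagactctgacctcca
Oas2 probe, other, chr5:119968974-119969033, minus strand: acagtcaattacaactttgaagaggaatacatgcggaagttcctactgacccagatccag

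Members were lower in PM2i-iPSC, OM2i-iPSC and ES than in MEF more often than genes at large. In PM2i-iPSC, 23 of the 43 members with a fold or a bound were at least 2-fold lower (53.5%, against 26.2% of all 19796 genes), and 9 were at least 2-fold higher (20.9%, against 37.6%). In OM2i-iPSC, 23 of 44 were lower (52.3%, against 25.4% of all genes) and 9 were higher (20.5%, against 39.9%). In ES, 22 of 46 were lower (47.8%, against 24.2%) and 9 were higher (19.6%, against 36.4%). The median log2 difference of the members was -1.21 for PM2i-iPSC, -1.57 for OM2i-iPSC and -0.79 for ES, against 0.28, 0.38 and 0.28 for all genes. Under median scaling the medians of all genes were -0.41, -0.41 and -0.35, and those of the members were -1.98, -2.32 and -1.42. The comparisons share the MEF array, so they are not independent of each other. Many of the lower members were not well above background on the array compared with MEF. Among members well above background on both arrays, the median was -0.23 for PM2i-iPSC, -0.14 for OM2i-iPSC and -0.57 for ES. Of these members, 14 of 31 were lower in PM2i-iPSC (45.2%, against 24.1% of all genes so filtered), 14 of 34 in OM2i-iPSC (41.2%, against 24.6%) and 15 of 37 in ES (40.5%, against 22.3%). Those higher numbered 9 (29.0%, against 36.2%), 9 (26.5%, against 37.4%) and 8 (21.6%, against 34.4%).

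**Figure D1:**
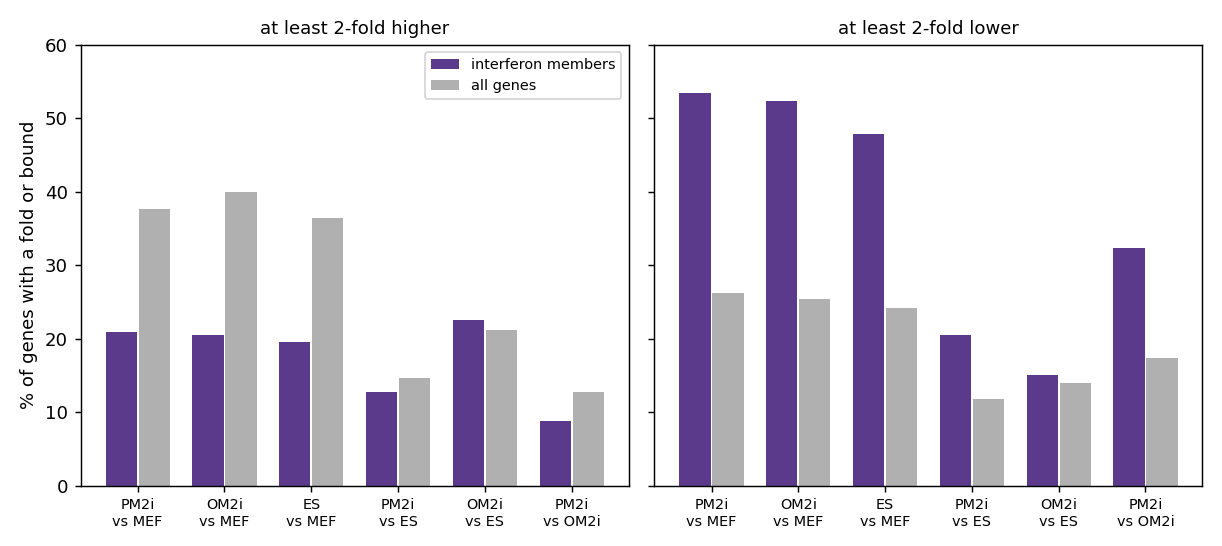
Percentage of genes at least 2-fold higher (left) or lower (right), among those with a fold or a bound, in each comparison of 2 arrays. Purple bars are the interferon members and grey bars all genes; against MEF the members' lower share is 53.5%, 52.3% and 47.8%, above the grey bars.

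The Irf factors did not move as 1 group. Irf8, a factor of myeloid and lymphoid cells, stood at 2.10 in PM2i-iPSC, 3.15 in OM2i-iPSC and 0.55 in ES, against -4.43 in MEF. That is 92.4-fold, 190.9-fold and 31.5-fold above MEF. Its other probe, printed above, also read higher than MEF but by less, with log2 differences of 2.05, 1.94 and 1.79. Irf4, a lymphocyte factor, was well above background only in ES, at -4.26, which is at least 6.01-fold above MEF.

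Irf7, Irf2, Irf1 and Irf3 were lower than MEF. Irf7, which amplifies type I interferon production, was not well above background in PM2i-iPSC, OM2i-iPSC or ES and stood at -1.26 in MEF. It was at least 10.1-fold lower in PM2i-iPSC, at least 10.2-fold in OM2i-iPSC and at least 14.7-fold in ES. Irf2, an antagonist of Irf1 on many promoters, had differences from MEF of at least 12.3-fold for PM2i-iPSC, at least 12.4-fold for OM2i-iPSC and 12.9-fold for ES, all below MEF. Irf1, itself induced by interferon gamma, stood at -0.39, -0.63 and -0.49 in PM2i-iPSC, OM2i-iPSC and ES, against 1.05 in MEF. Its second probe did not reach 2-fold in PM2i-iPSC or OM2i-iPSC (log2 differences -0.01 and -0.13) and read -1.08 in ES. Irf3, the factor activated directly by nucleic acid sensors, stood at 2.34 in PM2i-iPSC, 3.46 in OM2i-iPSC and 4.26 in ES, against a saturated 5.09 in MEF. It was at least 6.71-fold, at least 3.09-fold and at least 1.77-fold lower, and its second, unsaturated probe gave -1.52, -2.36 and -1.19. The probes thus order PM2i-iPSC and OM2i-iPSC differently. Irf5, a factor of Toll-like receptor signalling, was within 2-fold of MEF in PM2i-iPSC and ES and 2.07-fold higher in OM2i-iPSC. Irf9 appears in the file under an older name, Isgf3g, and was looked up after other values were seen; its log2 differences from MEF were -2.09, -1.93 and -1.46. Of the Irf2 binding proteins, which act as corepressors, Irf2bp2 was lower by 7.20-fold, 5.34-fold and 5.57-fold in PM2i-iPSC, OM2i-iPSC and ES, and Irf2bp1 did not reach 2-fold.

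**Figure D2:**
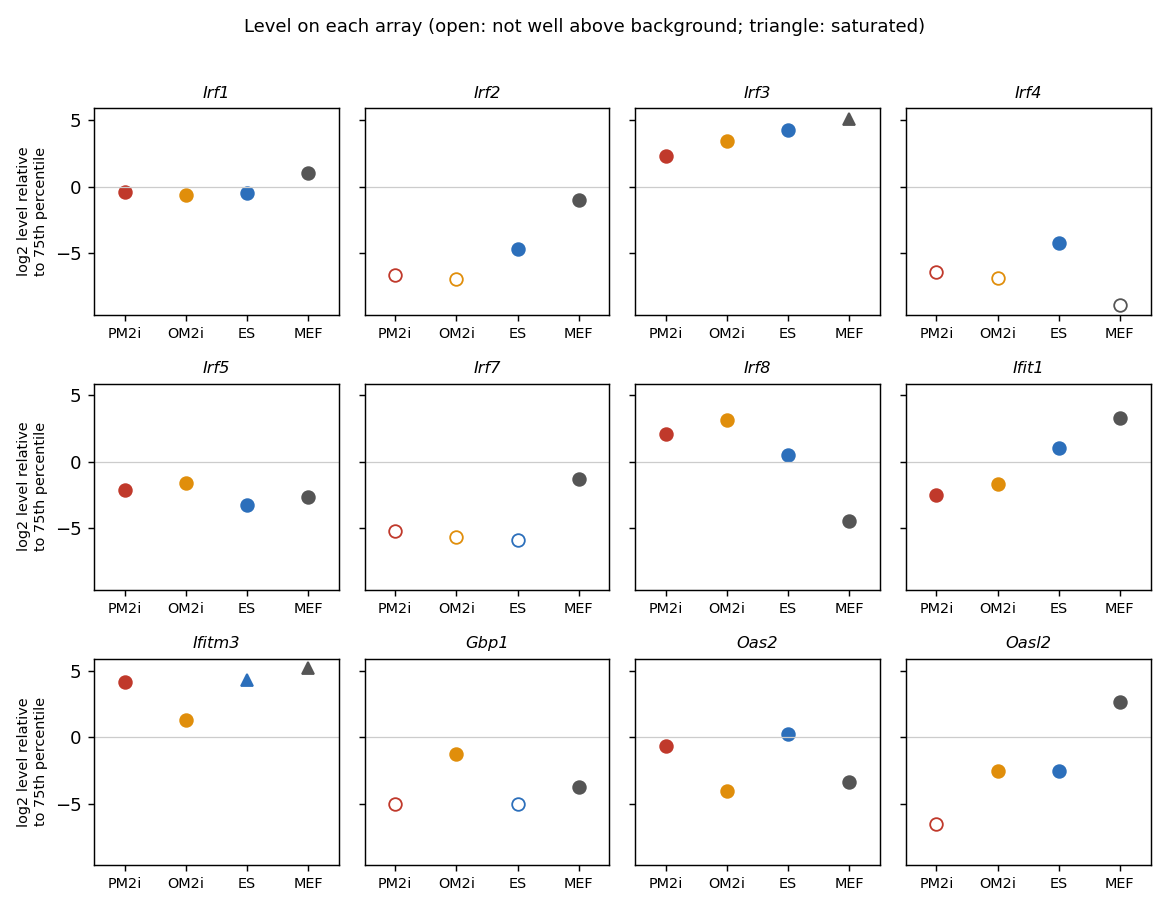
Log2 level relative to the 75th percentile of the array (vertical axis) on the PM2i-iPSC, OM2i-iPSC, ES and MEF arrays for 7 Irf factors, Ifit1, Ifitm3, Gbp1, Oas2 and Oasl2, with 1 point per array. Open points are not well above background and triangles are saturated; Irf8 is lowest in MEF, while Irf1, Irf2 and Irf7 are highest there.

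The Ifi genes were mostly lower than MEF. Of 9 genes, 8 were at least 2-fold lower than MEF in PM2i-iPSC, 8 in OM2i-iPSC and 8 in ES, and this count was the same under median scaling, quantile normalization and normexp background correction. Ifi44, an interferon-induced GTP-binding-like protein, stood at -3.71 in PM2i-iPSC, -4.46 in OM2i-iPSC and -3.38 in ES, against 3.72 in MEF. It was 172-fold, 289.7-fold and 137-fold lower. Its second probe was well above background in MEF alone, with bounds of -4.01, -4.02 and -4.55 on the log2 scale. Ifi203, of the DNA-binding Ifi200 proteins, was at least 100.3-fold lower in PM2i-iPSC, at least 101.3-fold in OM2i-iPSC and 77.7-fold in ES. Its Ifi200 neighbour Ifi202b was at least 70.9-fold, 26.3-fold and 27.6-fold lower. Ifi204 and Ifi205, of the same group, were lower by 5.58-fold and 12.9-fold in PM2i-iPSC, 5.85-fold and 6.88-fold in OM2i-iPSC, and 8.91-fold and at least 33.9-fold in ES. Ifi35 was lower by 32.1-fold, 6.85-fold and 14.0-fold. Ifi47, an immunity-related GTPase, was well above background only in MEF, and was lower elsewhere by at least 32.0-fold, 32.3-fold and 46.6-fold. The file gives the name Ifi27 to 3 probes, of which RefSeq accessions place 2 in Ifi27l2a and 1 was matched to Ifi27 by symbol alone, so the name may cover more than 1 gene. It was lower by 5.86-fold in PM2i-iPSC, 2.87-fold in OM2i-iPSC and 3.64-fold in ES on its brightest probe, an Ifi27l2a one. The other Ifi27l2a probe read a bound of -6.17 in PM2i-iPSC, -3.85 in OM2i-iPSC and -5.52 in ES on the log2 scale, and the probe matched to Ifi27 read a bound of -6.21, then -3.86 and -5.22. Ifi30, the lysosomal thiol reductase of antigen processing, went the other way, at 3.47-fold and 2.25-fold above MEF in PM2i-iPSC and OM2i-iPSC and 1.79-fold in ES. Under median scaling its log2 difference in OM2i-iPSC was 0.37 and no longer reached 2-fold.

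Of the 3 Ifit genes, Ifit1 and Ifit3 were lower and Ifit2 was not. Ifit1 stood at -2.50 in PM2i-iPSC, -1.65 in OM2i-iPSC and 1.02 in ES, against 3.28 in MEF. It was 54.7-fold and 30.5-fold lower than MEF in the iPSC preparations and 4.80-fold lower in ES. Ifit3 was well above background in ES and MEF only, and lower than MEF by at least 97.7-fold in PM2i-iPSC, at least 98.7-fold in OM2i-iPSC and 72.6-fold in ES. Ifit2 lay within 2-fold of MEF on all 3 arrays on its brightest probe, at 0.76, -0.09 and -0.33. Its other probe was well above background in MEF alone and gave bounds of -2.06, -2.08 and -2.61 elsewhere, so the 2 probes of Ifit2 do not give the same reading.

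**Figure D3:**
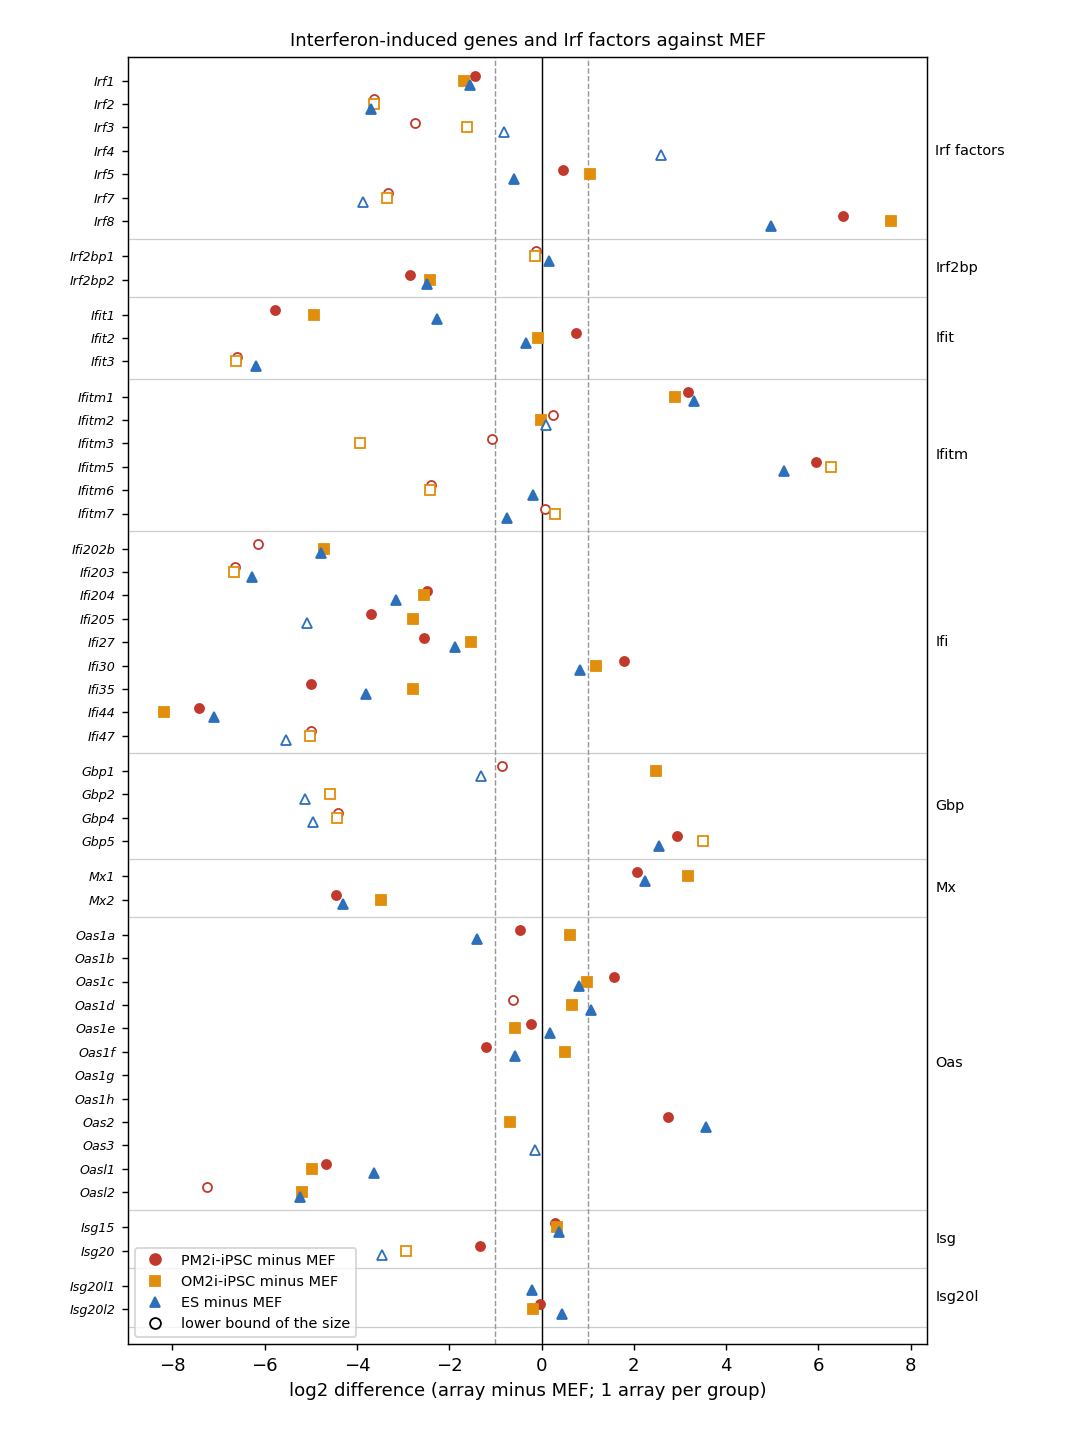
Log2 difference from MEF (horizontal axis) for 49 member genes (rows, by family) in PM2i-iPSC, OM2i-iPSC and ES, with 1 array per group. Open symbols are lower bounds of the size and dashed lines mark 2-fold; Ifi genes lie left of the lines except Ifi30, and Irf8, Ifitm1, Ifitm5, Gbp5 and Mx1 lie to the right.

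Neighbouring genes of 1 family could lie on opposite sides of MEF. On chromosome 7, 5 Ifitm probes span 65.8 kb. Ifitm5, a bone-restricted member in the adult mouse, stood at 3.78 in PM2i-iPSC, a saturated 4.10 in OM2i-iPSC and 3.08 in ES, against -2.17 in MEF. It was 62.0-fold, at least 77.3-fold and 38.1-fold above MEF. Ifitm1, a marker of primordial germ cells in the mouse, was 9.09-fold, 7.46-fold and 9.93-fold above MEF. Ifitm2 was saturated in PM2i-iPSC and ES, and stood at 4.40, 4.14 and 4.26 in PM2i-iPSC, OM2i-iPSC and ES, against 4.16 in MEF. Its second probe, which the file places elsewhere on chromosome 7, was not saturated and differed from MEF by 0.66, 0.44 and 0.83. Ifitm3, the member best known for blocking influenza virus, stood at 4.11 in PM2i-iPSC, 1.25 in OM2i-iPSC and a saturated 4.31 in ES, against a saturated 5.19 in MEF. PM2i-iPSC lay at least 2.11-fold below MEF and OM2i-iPSC at least 15.4-fold below it, and between ES and MEF no fold can be given. Ifitm6 was well above background in ES and MEF alone and at least 5.29-fold and 5.34-fold lower than MEF in PM2i-iPSC and OM2i-iPSC. Ifitm7, on chromosome 16, was saturated in both iPSC preparations and did not reach 2-fold against MEF.

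On chromosome 3, the 4 Gbp probes span 115.9 kb. Gbp5, which promotes inflammasome assembly, stood at 3.53 in PM2i-iPSC, a saturated 4.09 in OM2i-iPSC and 3.14 in ES, against 0.59 in MEF. It was 7.66-fold, at least 11.3-fold and 5.83-fold above MEF. Gbp4, Gbp3 in RefSeq, lies 51.3 kb away and was well above background in MEF alone, with the other arrays lower by at least 21.4-fold, 21.6-fold and 31.2-fold. Gbp2 lay below MEF by at least 24.1-fold in OM2i-iPSC and at least 34.7-fold in ES, and on the PM2i-iPSC array the scanner software marked its spot as an outlier. Gbp1, Gbp2b in RefSeq, was well above background in OM2i-iPSC at -1.26 and in MEF at -3.73, and not in PM2i-iPSC or ES. It was 5.55-fold above MEF in OM2i-iPSC and at least 2.47-fold below it in ES. The Mx GTPases on chromosome 16 also split. Mx1 was above MEF by 4.21-fold in PM2i-iPSC, 9.04-fold in OM2i-iPSC and 4.75-fold in ES. Mx2, its probe 115.1 kb away, was lower than MEF by 21.9-fold, 11.2-fold and 19.8-fold. Each of these levels rests on 1 probe, except that Mx1 has a second probe that was well above background on no array.

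**Figure D4:**
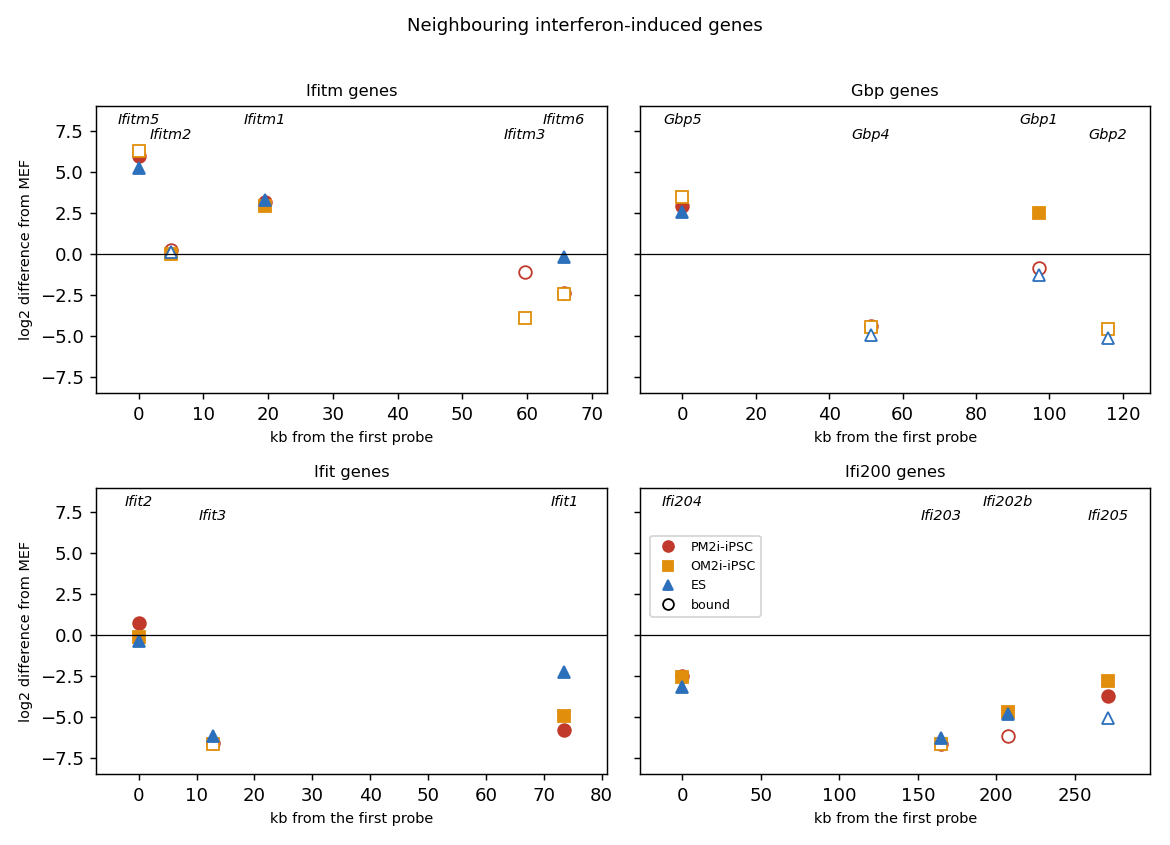
Log2 difference from MEF (vertical axis) against the distance in kb from the first probe of the group (horizontal axis) for neighbouring Ifitm, Gbp, Ifit and Ifi200 genes in PM2i-iPSC, OM2i-iPSC and ES. Open symbols are bounds; Ifitm5, Ifitm1 and Gbp5 lie above 0, while Gbp4, Ifit3 and the 4 Ifi200 genes lie below it.

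The Oas genes did not share a direction. Of the 8, 8 and 9 with a fold in PM2i-iPSC, OM2i-iPSC and ES, 2, 0 and 2 were higher and 3, 2 and 3 lower than MEF. The lower shares were 37.5%, 25.0% and 33.3%, against 26.2%, 25.4% and 24.2% of all genes. The higher shares were 25.0%, 0.0% and 22.2%, against 37.6%, 39.9% and 36.4%. These counts are small, and in OM2i-iPSC the lower share lies near that of all genes. Oasl1 and Oasl2, the Oas-like proteins, had the widest differences below MEF. Oasl2 was not well above background in PM2i-iPSC and stood at -2.53 in OM2i-iPSC and -2.57 in ES, against 2.66 in MEF. It was at least 152-fold, 36.5-fold and 37.4-fold lower. Oasl1 was lower by 25.3-fold, 31.3-fold and 12.4-fold in PM2i-iPSC, OM2i-iPSC and ES. Oas2 was 6.64-fold above MEF in PM2i-iPSC and 11.8-fold above it in ES, and within 2-fold in OM2i-iPSC. Its other probe, at -3.94, -2.63 and -0.33 in PM2i-iPSC, OM2i-iPSC and ES and not well above background in MEF, gave bounds of 2.91, 4.22 and 6.52 above MEF. Oas1a stood at 0.01 in PM2i-iPSC, 1.09 in OM2i-iPSC and -0.92 in ES, against 0.47 in MEF, so ES was 2.62-fold below MEF. Oas1f was 2.31-fold lower than MEF in PM2i-iPSC, and Oas1c was 2.95-fold higher there. Oas1d was 2.11-fold above MEF in ES. No other difference from MEF in Oas1a, Oas1c, Oas1d, Oas1e or Oas1f reached 2-fold. Oas3 and Oas1b were well above background in MEF alone, at -4.99 and -5.39, and gave no 2-fold difference. The second probe of Oas3 was so in OM2i-iPSC alone, where it was higher than MEF by at least 3.65 on the log2 scale. Of the Isg genes, Isg20, an RNA exonuclease, was lower than MEF by 2.53-fold in PM2i-iPSC, and its bounds were -2.93 in OM2i-iPSC and -3.46 in ES on the log2 scale. Its second probe gave bounds of -0.43 in PM2i-iPSC and -1.01 in ES but read 0.76 above MEF in OM2i-iPSC, so no direction can be given for Isg20 in OM2i-iPSC. Isg15, a ubiquitin-like modifier, was within 2-fold of MEF on each array, at 2.86, 2.90 and 2.94 in PM2i-iPSC, OM2i-iPSC and ES, against 2.56 in MEF. The file places the Isg15 probe on chromosome 17, whereas RefSeq has the gene on chromosome 4, so what this probe measures is uncertain. Isg20l2 did not reach 2-fold against MEF on its brightest probe, while its dimmer second probe was higher, by 3.68 in OM2i-iPSC. Isg20l1 was saturated in both iPSC preparations on its brightest probe, which the file places on chromosome 4. Its other probes lie on chromosome 7 and match Aen, an exonuclease gene, in RefSeq, and the brighter of them did not reach 2-fold.

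The counts were also split into induced genes and Irf factors. Of induced genes with a fold, 18 of 33 were at least 2-fold lower than MEF in PM2i-iPSC, 18 of 34 in OM2i-iPSC and 18 of 34 in ES, with 7, 6 and 6 higher. Of Irf factors, 4 of 7, 4 of 7 and 3 of 8 were lower, and 2, 3 and 3 were higher, so in ES as many were higher as lower. The lower shares were 54.5%, 52.9% and 52.9% for induced genes and 57.1%, 57.1% and 37.5% for Irf factors. For all genes they were 26.2%, 25.4% and 24.2%. The higher shares were 21.2%, 17.6% and 17.6% for induced genes and 28.6%, 42.9% and 37.5% for Irf factors. For all genes they were 37.6%, 39.9% and 36.4%. The Irf counts are small, and their higher shares in OM2i-iPSC and ES lie near those of all genes. The median log2 difference was -1.21, -1.97 and -1.35 for the induced genes and -1.44, -1.63 and -0.71 for the Irf factors in PM2i-iPSC, OM2i-iPSC and ES. Differences between the induced genes and the Irf factors were not tested. The fibroblast markers given above were also lower in PM2i-iPSC, OM2i-iPSC and ES than in MEF. Of 12 macrophage and other leukocyte markers, Emr1 and Tyrobp were well above background only in MEF, at 0.58 and 0.93, and Ptprc was so only in ES. The other 9 were well above background in MEF and on at least 1 of the other arrays. The summed level of the leukocyte list was 6.60, 5.23, 6.88 and 5.60 times the 75th percentile on the PM2i-iPSC, OM2i-iPSC, ES and MEF arrays. Of 6 endothelial markers, Cdh5, Kdr and Emcn were well above background only in MEF, where Kdr and Emcn were too dim for a fold, and Tie1 was so only in ES. Pecam1 was above MEF by 4.92-fold, 3.11-fold and 10.4-fold and Tek by at least 129.6-fold, 35.5-fold and 27.9-fold in PM2i-iPSC, OM2i-iPSC and ES. The endothelial list summed to 1.41, 0.486, 0.776 and 0.198 times the 75th percentile on the PM2i-iPSC, OM2i-iPSC, ES and MEF arrays. The part of these cell types in the differences was not tested.

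Against ES, the iPSC preparations differed in fewer members than against MEF, and the same held for all genes. In PM2i-iPSC, 5 of 39 members were at least 2-fold higher (12.8%, against 14.6% of all genes) and 8 were lower (20.5%, against 11.8%). In OM2i-iPSC, 9 of 40 were higher (22.5%, against 21.2%) and 6 were lower (15.0%, against 14.0%). Both OM2i-iPSC shares and the higher share in PM2i-iPSC lie near those of all genes. Under median scaling, 5 were higher and 6 lower in OM2i-iPSC. The median was -0.20 in PM2i-iPSC and 0.07 in OM2i-iPSC, against -0.04 and 0.05 for all genes. Both comparisons share the ES array. Ifit1 was 11.4-fold below ES in PM2i-iPSC and 6.35-fold below it in OM2i-iPSC. Ifitm6 was lower than ES by at least 4.64-fold and 4.69-fold, and Oasl1 by 2.04-fold and 2.52-fold. Irf8 was above ES by 2.93-fold in PM2i-iPSC and 6.06-fold in OM2i-iPSC on its brightest probe, but its other probe read 0.26 and 0.15. Irf5 was above ES by 2.10-fold and 3.14-fold on its 1 probe. Ifi205, an Ifi200 gene, was at least 2.62-fold and 4.92-fold above ES on its brightest probe, whereas a second probe gave bounds of -1.63 and -1.64 on the log2 scale. Ifitm3 was at least 8.38-fold below ES in OM2i-iPSC, while Gbp1 was at least 13.7-fold and Oas1a 4.02-fold above it there. Oas2 was below ES by 1.78-fold in PM2i-iPSC and 19.1-fold in OM2i-iPSC on its brightest probe. Its other probe read -3.61 and -2.30 on the log2 scale, so both put Oas2 below ES but they differ on which preparation lay further from it. Irf3 was 3.79-fold below ES in PM2i-iPSC, against 1.74-fold below it in OM2i-iPSC. Its second probe read -0.33 and -1.17, so the probes again order the preparations differently.

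Between the preparations, PM2i-iPSC was at least 2-fold below OM2i-iPSC in 11 of 34 members (32.4%, against 17.3% of all genes) and 3 were higher (8.82%, against 12.8%). With median scaling, 8 of 34 were lower (23.5%, against 15.0%). The 3 higher ones in the first count were Oas2, Ifitm3 and Isg20. Oas2 stood at -0.64 in PM2i-iPSC and -4.06 in OM2i-iPSC on its brightest probe. The other one ran the opposite way, at -3.94 in PM2i-iPSC and -2.63 in OM2i-iPSC, so no direction between the preparations can be given for Oas2. Isg20 likewise was higher in PM2i-iPSC by at least 1.59 on the log2 scale on 1 probe, while the other gave a bound of -1.18. Ifitm3, with 1 probe, was 7.28-fold higher in PM2i-iPSC than in OM2i-iPSC. Irf8 and Irf3 were lower in PM2i-iPSC by 2.07-fold and 2.18-fold on their brightest probes, but their second probes read 0.11 and 0.84. Among the other lower ones, Gbp1 was at least 10.1-fold, Ifi35 4.69-fold, Oasl2 at least 4.17-fold and Oas1f 3.31-fold lower in PM2i-iPSC. Ifi35, a leucine zipper protein induced by interferon, stood at -4.01 in PM2i-iPSC and -1.78 in OM2i-iPSC, with ES between them at -2.82.

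**Figure D5:**
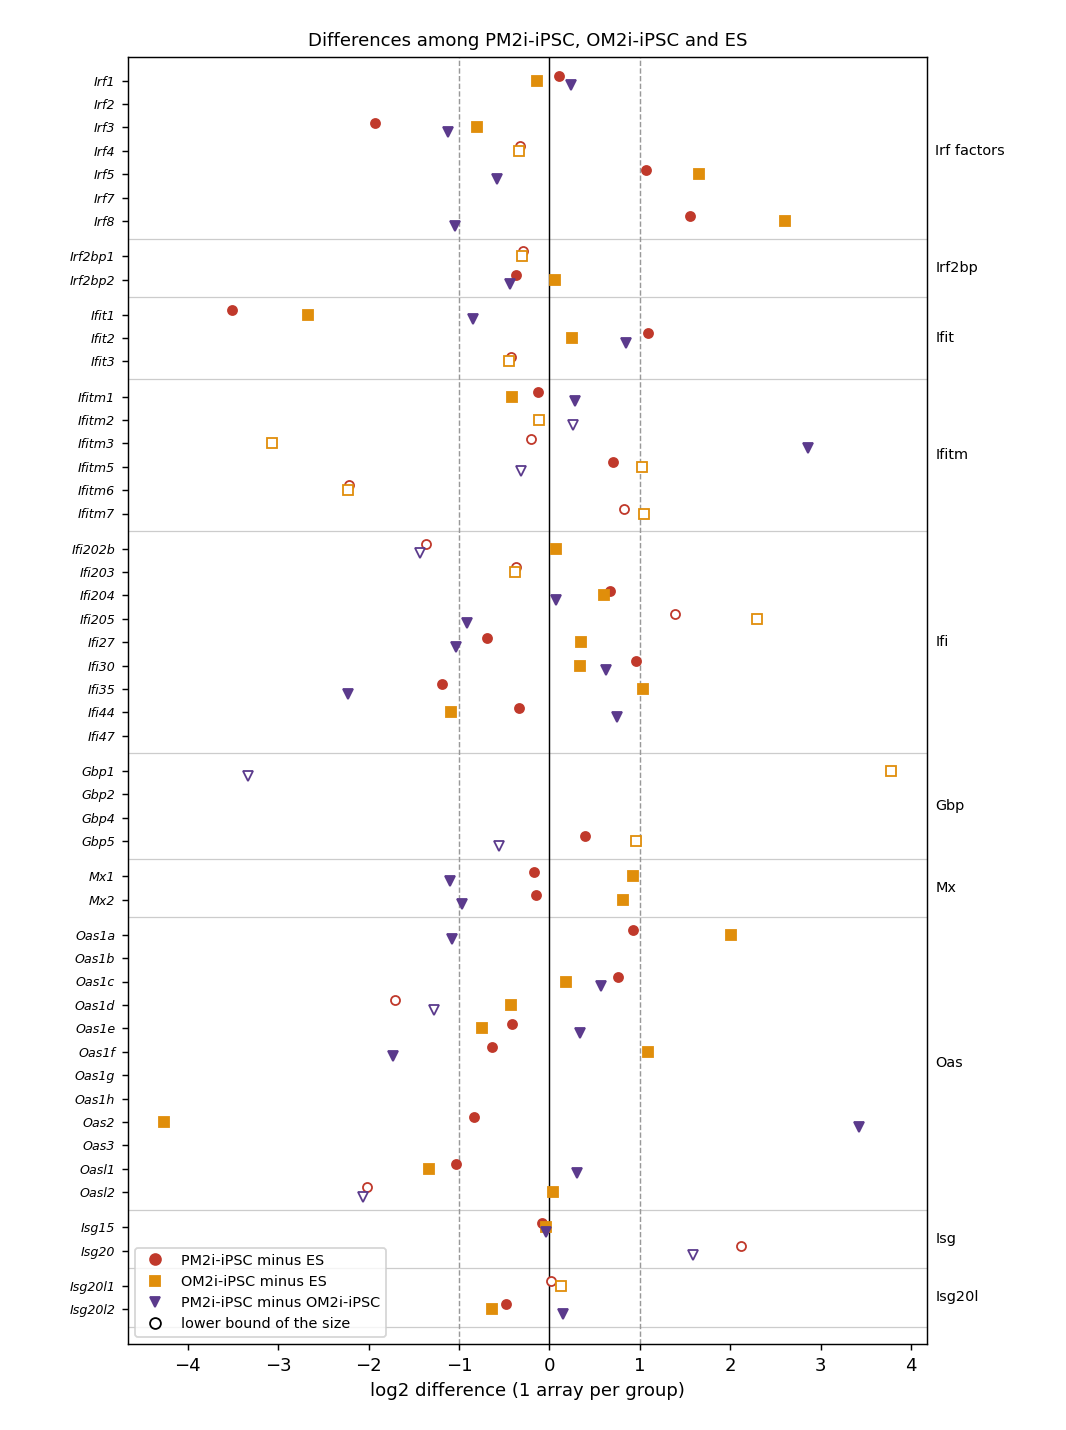
Log2 differences (horizontal axis) of PM2i-iPSC from ES, OM2i-iPSC from ES, and PM2i-iPSC from OM2i-iPSC for 49 member genes (rows, by family), with 1 array per group. Open symbols are lower bounds of the size and dashed lines mark 2-fold; Ifit1 and Ifitm6 lie left of 0 against ES in both preparations, and Irf8 and Irf5 lie right of it.

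Members that set ES apart from MEF mostly had ES-like levels in both preparations. Of 28 members at least 2-fold apart between ES and MEF and readable in PM2i-iPSC, 25 were nearer to ES (89.3%, against 84.6% of all genes). In OM2i-iPSC, 27 of 29 were nearer to ES (93.1%, against 80.6%). The shares lie near those of all genes, so they say little that is particular to these members. Levels under the highest floor, -4.59, were raised to it here, which leaves out members such as Gbp1 whose ES and MEF levels then lie within 2-fold. Those nearer to MEF were Isg20, Oas1a and Oas1d in PM2i-iPSC, and Oas1a and Oas2 in OM2i-iPSC.

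The rest of the interferon pathway was read from 5 gene lists. These lists were chosen with earlier results of these data known, so their shares are descriptive only. Their counts stand beside the shares of all genes given above, which were 26.2%, 25.4% and 24.2% lower and 37.6%, 39.9% and 36.4% higher than MEF in PM2i-iPSC, OM2i-iPSC and ES. Receptors, Jak kinases and Stat factors were mostly lower than MEF, in 7 of 10 genes in PM2i-iPSC (70.0%), 7 of 11 in OM2i-iPSC (63.6%) and 9 of 11 in ES (81.8%). Under quantile normalization the count in PM2i-iPSC was 5. Ifngr1, the ligand-binding chain of the interferon gamma receptor, stood at -0.21, 0.35 and 0.24 in PM2i-iPSC, OM2i-iPSC and ES, against 3.88 in MEF. Ifngr2 was within 2-fold of MEF in PM2i-iPSC and OM2i-iPSC and 2.92-fold lower in ES. Of the type I receptor chains, Ifnar1 differed by -1.12, -2.38 and -1.53 and Ifnar2 by -2.65, -2.67 and -1.63 in PM2i-iPSC, OM2i-iPSC and ES. Il10rb, a shared chain of the lambda interferon receptor, differed by -3.46, -4.34 and -3.29, and its partner Il28ra by 3.82 in OM2i-iPSC and 4.67 in ES. Il28ra was near the floor of the MEF array, at -6.47, so these 2 differences are uncertain in size. In PM2i-iPSC it was not well above background and gave no fold. Stat2 differed by -0.82, -1.75 and -1.93. Jak2 differed by -3.48, -2.86 and -2.68, and Jak1 by -1.77, -2.88 and -2.11, while Tyk2 did not reach 2-fold on any array.

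Of 25 other interferon-induced genes, 19 were at least 2-fold lower than MEF in PM2i-iPSC (76.0%), 19 in OM2i-iPSC (76.0%) and 20 in ES (80.0%), and none was higher. Some of them, such as Isg15, Stat2 and Usp18, are also counted elsewhere in this account. The median log2 differences of the 25 were -2.72, -1.75 and -2.13. Rtp4, a chaperone of G protein-coupled receptors, differed from MEF by -7.12 in OM2i-iPSC and -4.82 in ES, with a bound of -8.51 in PM2i-iPSC. Usp18, which removes Isg15 from proteins, had bounds of -6.45 and -6.46 in PM2i-iPSC and OM2i-iPSC and a difference of -4.40 in ES. Rsad2, the antiviral protein viperin, differed by -5.04, -6.65 and -4.24, and the chemokine Cxcl10 by -4.88, -5.18 and -2.08. Trim25 did not reach 2-fold on any array. Of the nucleic acid sensing genes, 11 of 16 were lower in PM2i-iPSC (68.8%), 10 of 16 in OM2i-iPSC (62.5%) and 10 of 16 in ES (62.5%), with 3, 3 and 0 higher. Eif2ak2, the RNA-activated kinase PKR, differed by -6.10, -5.92 and -3.67. The RNA sensor Ifih1 had bounds of -6.17 and -6.09 in PM2i-iPSC and OM2i-iPSC and a difference of -5.04 in ES. Tlr9, a DNA sensor, was higher by 1.37 and 2.41 in PM2i-iPSC and OM2i-iPSC and did not reach 2-fold in ES.

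Negative regulators did not share a direction, with 2, 4 and 3 of 8 higher and 2, 1 and 2 lower in PM2i-iPSC, OM2i-iPSC and ES. These counts are small, and in ES the shares, 37.5% higher and 25.0% lower, lie near those of all genes. Socs1, which blocks Jak kinases, stood at -1.80 in PM2i-iPSC, 3.37 in OM2i-iPSC and -0.78 in ES, against -0.46 in MEF. The log2 differences from MEF were -1.34 in PM2i-iPSC and 3.83 in OM2i-iPSC. Socs3 was above MEF by 1.89, 1.31 and 1.83 in PM2i-iPSC, OM2i-iPSC and ES. Of 13 interferon ligands, 7 had a fold in PM2i-iPSC, 6 in OM2i-iPSC and 5 in ES. Of those, 7, 6 and 3 were higher than MEF and none was lower. Under median scaling these counts were 4, 5 and 1, and normexp background correction put 1 lower on each array. The ligands with a fold stood from -2.42 to -0.93 in PM2i-iPSC, from -3.40 to 0.48 in OM2i-iPSC and from -2.70 to -1.82 in ES. In MEF the same ligands stood at -2.89 or lower, and Ifna2 and Ifna4 were not well above background there. Ifnb1 was well above background in PM2i-iPSC, at -2.42, and near the floor of the MEF array at -6.75, so the difference of 4.32 is uncertain in size. Ifna6 stood at -0.93 in PM2i-iPSC, 0.48 in OM2i-iPSC and -2.70 in ES, against -5.77 in MEF.

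Promoters of the members were searched for letters of the interferon response elements, in 250 bases before and 50 after each start, from RefSeq on GRCm38.p6. Of 50 members, 40 had a promoter in that table under their current symbol. The core of the interferon-stimulated response element was searched as GAAANNGAAA and the gamma-activated site as TTCNNNGAA, on both strands. The first was in a promoter of 16 members (40.0%), against 3.99% of all 27025 genes in the table. The second was in 12 of the 40 members, against 9.55% of all genes, and 1 match of the first overlapped a match of the second. The promoters below belong to genes that were lower than MEF on each array where they had a fold, and capitals mark the GAAANNGAAA core on either strand.
Ifit1 promoter, chr19:34640769-34640828, plus strand: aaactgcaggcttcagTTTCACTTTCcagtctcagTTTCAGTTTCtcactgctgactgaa
Ifit3 promoter, chr19:34583365-34583424, plus strand: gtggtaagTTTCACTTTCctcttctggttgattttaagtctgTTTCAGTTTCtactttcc
Gbp4 (Gbp3 in RefSeq) promoter, chr3:142559977-142560036, plus strand: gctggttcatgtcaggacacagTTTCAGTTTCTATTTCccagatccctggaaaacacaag
Gbp2 promoter, chr3:142620579-142620638, plus strand: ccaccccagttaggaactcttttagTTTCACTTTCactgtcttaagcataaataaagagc
Irf2 promoter, chr8:46739495-46739554, plus strand: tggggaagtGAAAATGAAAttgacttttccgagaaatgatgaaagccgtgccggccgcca

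The core was also found among members that were not called lower. It was in 7 of the 20 lower members with a promoter in PM2i-iPSC (35.0%), 2 of 6 higher ones (33.3%) and 7 of the 14 others. In OM2i-iPSC the counts were 8 of 20, 2 of 7 and 6 of 13, and in ES 9 of 19, 1 of 5 and 6 of 16. The others are all members without a 2-fold call, so they include some that had no fold. Oas1g was such a member in each comparison, and Gbp2 was in PM2i-iPSC, so the shares of the others do not describe unchanged genes alone. All 4 Gbp promoters held it, including that of Gbp5, which was above MEF, and Gbp4, which was below. The promoters below belong to members that were higher than MEF in a comparison, within 2-fold of it, or at least 2-fold different between PM2i-iPSC and OM2i-iPSC, with the same marking.
Gbp5 promoter, chr3:142496744-142496803, plus strand: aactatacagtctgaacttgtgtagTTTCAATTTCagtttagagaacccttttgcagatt
Gbp1 (Gbp2b in RefSeq) promoter, chr3:142594685-142594744, plus strand: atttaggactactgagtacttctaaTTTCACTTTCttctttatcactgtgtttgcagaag
Ifitm3 promoter, chr7:141010700-141010759, minus strand: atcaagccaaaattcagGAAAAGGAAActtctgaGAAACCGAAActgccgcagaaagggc
Isg15 promoter, chr4:156200856-156200915, minus strand: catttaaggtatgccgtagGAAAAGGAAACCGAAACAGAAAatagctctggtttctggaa
Oas1a promoter, chr5:120907508-120907567, minus strand: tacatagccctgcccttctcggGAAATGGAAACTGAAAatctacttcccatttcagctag
Oas1c promoter, chr5:120812591-120812650, minus strand: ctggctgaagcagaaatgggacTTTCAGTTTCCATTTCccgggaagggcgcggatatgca
A match is a stretch of letters and not a measured binding site. Ifi44, Oasl1, Oasl2 and Irf8 had no match of the GAAANNGAAA core in this window, which says only that these letters are not there.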

How the data were processed

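Total RNA of 4 mouse cell populations was read on 1-colour Agilent arrays, with 1 array per group. The deposited scanner files hold spot intensity that, per the file headers, was extracted with Agilent Feature Extraction 10.7.3.1, or 9.5.3.1 for MEF. The processed signal is already background-corrected in the deposited files. Groups came from the labels' titles.

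Control spots and spots that the software marked as outliers were dropped, and spots of a probe were averaged. The log2 values used here were computed from the deposited intensity, minus the 75th percentile of each array (3530.7, 3460.7, 3160.1 and 1876.7 for PM2i-iPSC, OM2i-iPSC, ES and MEF). A gene was read on its brightest probe and entered a comparison when well above background on 1 of its arrays. A saturated dimmer side gives no fold. Calls were made at 2-fold, with no test, since no group has replicates. Named genes were every Irf factor and every Ifit, Ifitm, Oas, Mx and Isg gene, the widest differences of the other families and lists, and members whose probes disagree; among the lists the text names some of those the rule allows, and some genes that the rule names are not reported here. Members, lists and the rule for named genes were chosen with earlier results of these data known. Of the 74 probes, 58 were named in RefSeq by accession, 15 by symbol, and 1 kept its file name. Alternatives were 3 normalizations, 4 rules for filters, bounds and probes, and the authors' series table, whose intensity lay within 0.498% of the scanner files' deposited values. The mean signal that normexp needs is held by the MEF file, and median signals served for the other arrays. The scripts were tested on simulated data. Python 3.11.15, pandas 2.3.3, R 4.3.3 and limma 3.58.1 were used.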

Additional observations from a re-analysis of the deposited data

Results flagged for a closer look

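Ifi35 differed from ES in opposite directions in the 2 preparations. Its log2 difference from ES was -1.19 for PM2i-iPSC, against 1.03 for OM2i-iPSC, on its 1 probe. The comparisons share the ES array, and the difference between them was not tested. The OM2i-iPSC value fell short of 2-fold under median scaling (0.87), quantile normalization (0.94) and normexp correction (0.89).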

How the results depend on the processing

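Each of the 18 values (members at least 2-fold higher, members lower and the median, in 6 comparisons) was recomputed under 8 alternatives, and 125 of 144 recomputed values stayed close. A count was close when within 1.5 times, and a median when it moved by less than 0.285. No median against MEF changed sign, and the median of OM2i-iPSC against ES was 0.07, or -0.11 under median scaling. Requiring both arrays to be well above background, which drops the members that are dim outside MEF, left 14 members below MEF in each iPSC preparation, with medians of -0.23 and -0.14. It also left 3 higher and 4 lower in PM2i-iPSC against ES, and 7 lower in PM2i-iPSC against OM2i-iPSC. Median scaling, under which the median of all genes against MEF was -0.41 in PM2i-iPSC, -0.41 in OM2i-iPSC and -0.35 in ES, gave member medians against MEF of -1.98 in PM2i-iPSC, -2.32 in OM2i-iPSC and -1.42 in ES, and 5 higher in OM2i-iPSC against ES. Quantile normalization gave a median of -1.22 in OM2i-iPSC against MEF, and no filter or bounds gave -0.63. Without filter or bounds, 13 members were lower in PM2i-iPSC and 11 in OM2i-iPSC against ES. The median over all probes of a gene gave -0.87 in PM2i-iPSC, -0.995 in OM2i-iPSC and -1.16 in ES against MEF, and 3 higher in PM2i-iPSC against ES. Normexp correction, the single floor and the series table left all 18 values close. Of 137 differences of single members that reached 2-fold, from 126 to 137 stayed past it on the same side under each alternative except the stricter filter, under which 97 had a value and 97 stayed. Ifi205 in PM2i-iPSC against ES changed sign, to -0.12, under the median over its probes. Leaving out a replicate was not possible with 1 array per group. Dim members limit precision, since the floor of the MEF array lies lower than the others.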
